A study of Mus musculus with 8 samples.

Results

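The 55 genes described here encode the working parts of the lysosome: its acid hydrolases and their helpers, the main proteins of its membrane, the granulin precursor, the transcription factor TFEB, and the subunits of the vacuolar proton pump (V-ATPase). They were chosen by name, as 33 listed genes plus the 22 genes whose array name starts with Atp6v, out of 27343 named genes. They are read by 91 probes. A gene was tested where 1 of its probes stood well above background, in either channel, on 2 arrays or more and had a usable spot on all 8 arrays, which held for 49. All probes of Tfeb, Atp6v0a4, Atp6v1b1, Atp6v1c2 and Atp6v1g3 were too dim. The only probe of Atp6v0b was well above background on all 8 arrays, but its spot on the B. clausii 6 h array was not usable, so it was not tested and its other values are given with its sector.

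The cells were RAW 264.7, a macrophage-like line of BALB/c mouse origin that can also turn into osteoclasts. They were kept with Lactobacillus acidophilus MTCC-10307 or with Bacillus clausii MTCC-8326, at 100 bacteria per cell, for 1, 2, 4 or 6 h. Untreated cells of the same age served as the comparison at each time. RNA of 3 cultures was pooled for each group, and 1 array with 2 colours compared each treated pool (Cy5) with an untreated pool (Cy3), which gives 8 arrays. Values are given as log2 ratios, treated over untreated, after loess normalization unless another scale is named, and a positive value means a higher signal in treated cells. A lower ratio in such bulk RNA cannot tell fewer cells with the transcript apart from less of it per cell. The sources do not say whether both bacteria were compared with the same untreated pools.

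The dyes were never exchanged, so a dye effect particular to a gene cannot be told apart from a response shared by both bacteria. Each bacterium has its own slide and scan, so slide and bacterium cannot be told apart either, and the position on the slide goes with the time. Between 39.6% and 51.5% of probes were well above background in treated RNA and between 42.2% and 47.4% in untreated RNA, and no spot was saturated. Macrophage genes were present: 7 of 8 listed markers were tested, with 2 higher and 1 lower with L. acidophilus and 5 higher and 1 lower with B. clausii (Csf1r 0.29 and 0.52, Lyz2 0.39 and 0.48, Spi1 -0.48 and -0.36). By the same test, described further on, 23.7% of all genes were higher and 18.5% lower with L. acidophilus. With B. clausii it was 23.1% and 21.1%. The part of the marker shifts in the results below was not tested. The epithelial markers Epcam and Cdh1, the fibroblast markers Col1a1 and Pdgfrb, the B cell marker Ms4a1 and the T cell marker Cd3g were well above background on 0 arrays.

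Lysosomes digest proteins, sugars and lipids at acid pH. The V-ATPase makes them acid: its V1 sector in the cytosol splits ATP, and its V0 sector in the membrane carries the protons. In macrophages, phagosomes holding engulfed bacteria fuse with lysosomes, and the transcription factors TFEB and TFE3 bind an E-box, CACGTG, in the promoters of many lysosomal genes.

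Promoter sequence shows how common that E-box is among these genes. In the 250 bases before the annotated starts (RefSeq, GRCm38.p6), which were on hand for 46 of the 55 genes, 12 genes (26.1%) had CACGTG, against 6.86% of the 27025 genes with such a sequence. The longer form TCACGTGA, which contains the first, stood in 5 of the 46 (10.9%) and in 0.907% of all. Both read the same on either strand. The 5 genes are shown because they hold the longer form, with its letters in capitals and the sequence read along the gene's strand. A match is a description of these letters and not a site of binding.
Atp6v1a promoter: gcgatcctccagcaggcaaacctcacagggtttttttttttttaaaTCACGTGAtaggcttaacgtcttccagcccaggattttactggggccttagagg
Ctsa promoter: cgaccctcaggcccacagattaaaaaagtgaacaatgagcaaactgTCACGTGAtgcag
Ctsd promoter: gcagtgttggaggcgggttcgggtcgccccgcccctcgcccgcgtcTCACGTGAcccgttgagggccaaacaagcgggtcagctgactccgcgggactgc
Dpp7 promoter: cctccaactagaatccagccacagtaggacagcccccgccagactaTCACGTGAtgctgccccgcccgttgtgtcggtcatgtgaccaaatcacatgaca
Mcoln1 promoter: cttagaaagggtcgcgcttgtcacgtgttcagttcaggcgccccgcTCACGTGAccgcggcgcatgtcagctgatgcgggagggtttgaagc
The windows lie at chr16:44139338-44139437 (Atp6v1a, minus strand), chr2:164833714-164833772 (Ctsa, plus strand, before 1 of its 2 annotated starts), chr7:142387873-142387972 (Ctsd, minus strand), chr2:25356353-25356452 (Dpp7, minus strand) and chr8:3500427-3500518 (Mcoln1, plus strand). The motif begins 132 bases before the start in Atp6v1a, 13 in Ctsa, 99 in Ctsd, 74 in Dpp7 and 46 in Mcoln1. These 5 genes did not move alike: Ctsa, Ctsd and Mcoln1 were lower at 4 and 6 h than at 1 and 2 h, Dpp7 was higher, and Atp6v1a was not called for a change with time, as the values further on show.

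Changes in these genes were small. For each bacterium the mean over 1, 2, 4 and 6 h was tested with limma across 14805 genes, and a gene is called here at a Benjamini-Hochberg adjusted p under 0.05. With L. acidophilus, 10 of the 49 genes were called higher (20.4%, against 23.7% of all genes tested) and 9 lower (18.4%, against 18.5%), shares near those of all genes. With B. clausii, 26 were called higher (53.1%, against 23.1%) and 9 lower (18.4%, against 21.1%). The median of the 49 was 0.00 with L. acidophilus and 0.15 with B. clausii, where all genes had medians of 0.02 and 0.01. The error in these fits is the disagreement between the bacteria within times, since there is 1 array per bacterium and time, and it holds no scatter between cultures.

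The surplus of higher calls with B. clausii depended on how dye bias was removed. The loess curve corrects each array according to spot brightness. Where the ratios of each array were instead only shifted so that its median over all probes was 0, the median of all tested genes moved to -0.46, -0.25, -0.12 and -0.14 on the B. clausii arrays at 1, 2, 4 and 6 h and to between -0.11 and -0.05 on the L. acidophilus arrays, and the split with B. clausii turned to 2 higher and 31 lower. Relative to that shift, with the median of the tested genes set to 0 on each array, 11 genes were higher and 15 lower with B. clausii, while 10 were higher and 13 lower with L. acidophilus. All 11 of these higher calls, and 9 of the 15 lower ones, are also calls of the loess fit. On this centred scale 24 of the 49 genes lay above the median of all genes with B. clausii, against 36 with loess. With L. acidophilus it was 18, against 20 with loess. The values processed by the scanner software, after its own dye correction, gave 25 genes higher and 7 lower with B. clausii. With L. acidophilus they gave 8 higher and 7 lower. The counts of calls on these other scales, here and below, stand without the share of all genes called on them. Directions below are given on the loess scale, and beside each group stands the count with the tested genes centred at 0.

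**Figure D1:**
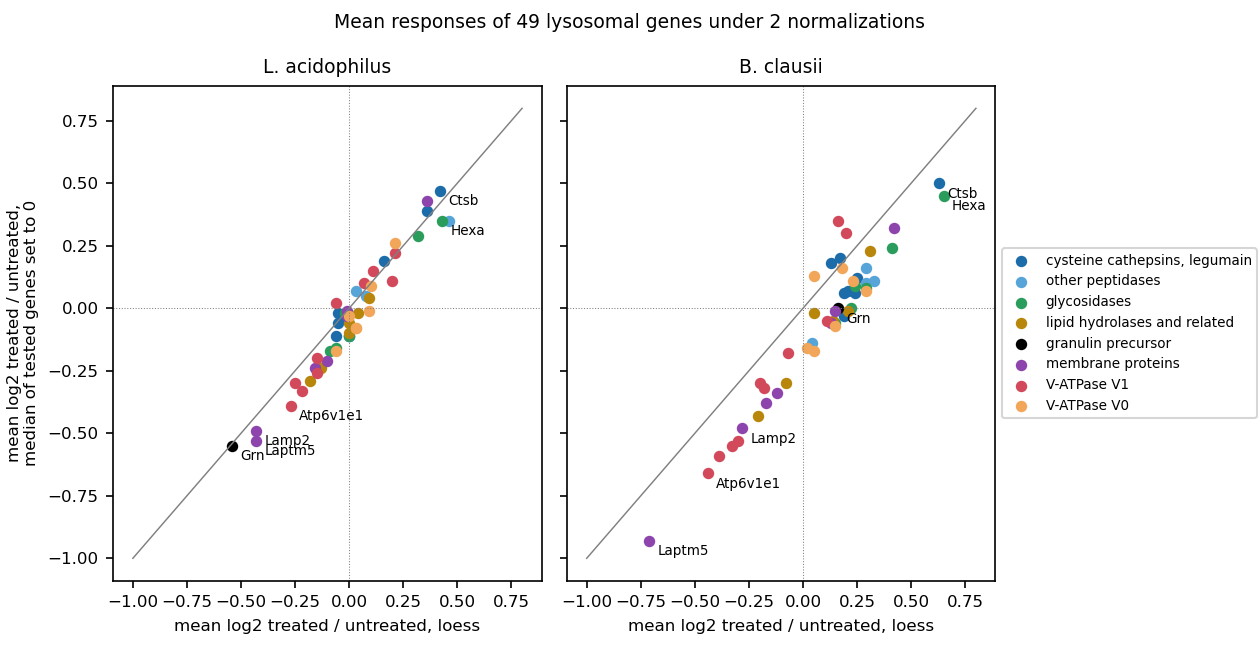
Each point is 1 of 49 lysosomal genes, with its mean log2 ratio of treated over untreated cells after loess (x axis) and with the median of the tested genes set to 0 on each array without loess (y axis), for L. acidophilus (left) and B. clausii (right); the line marks equal values. With L. acidophilus the points follow the line, whereas with B. clausii most lie below it: Hexa was 0.65 with loess and 0.45 without, Ctsc 0.19 and -0.03, and Laptm5 -0.71 and -0.93.

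**Figure D2:**
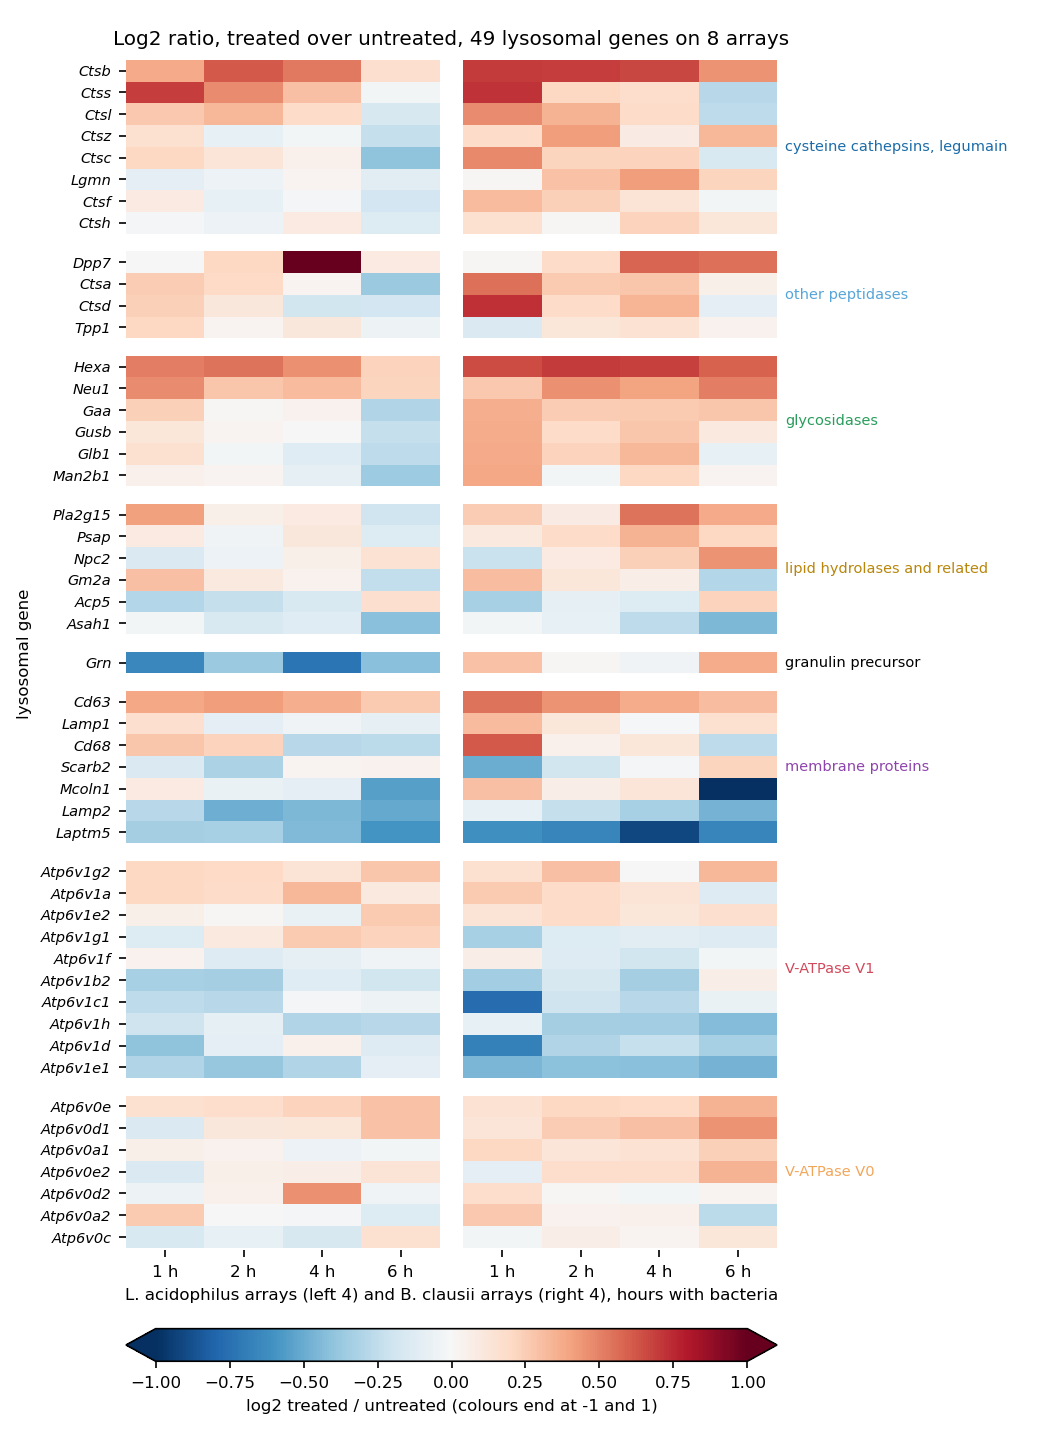
Log2 ratio of treated over untreated cells for the 49 tested lysosomal genes (rows, grouped by role) on the 4 L. acidophilus and 4 B. clausii arrays (columns, by hours); red is higher and blue lower in treated cells, and colours end at -1 and 1. Hexa, Ctsb, Neu1 and Cd63 are red on all 8 arrays and Laptm5, Lamp2 and Atp6v1e1 blue on all 8; the darkest cells are Dpp7 with L. acidophilus at 4 h (1.54) and Mcoln1 with B. clausii at 6 h (-1.21).

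The cysteine cathepsins and legumain are proteases that cut proteins taken up by the cell. With L. acidophilus 3 of 8 were called higher and with B. clausii 8 of 8 (group medians -0.02 and 0.20), and none was called lower. With the tested genes centred at 0, 3 were higher with each bacterium, and Ctsc turned to -0.03 with B. clausii. Ctsb, which encodes cathepsin B, was the highest of them. It was 0.38, 0.61, 0.53 and 0.17 with L. acidophilus at 1, 2, 4 and 6 h, and 0.70, 0.69, 0.67 and 0.45 with B. clausii. All 8 values were above 0. The mean response was 0.42 ± 0.04 (limma adjusted p = 0.000305) with L. acidophilus and 0.63 ± 0.04 (adjusted p = 2.8e-05) with B. clausii. Here and below, ± gives the standard error of the fit to all 8 arrays, which is not the spread of the arrays of 1 bacterium. A dimmer second Ctsb probe gave -0.03 with L. acidophilus and 0.31 with B. clausii.

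Ctss encodes cathepsin S, which trims the invariant chain of MHC class II molecules. It was 0.69, 0.47, 0.30 and -0.03 with L. acidophilus, and the B. clausii arrays gave 0.72, 0.21, 0.18 and -0.28, in the order of the times. Ctsl, cathepsin L, was 0.27, 0.33, 0.19 and -0.17 with L. acidophilus, while B. clausii gave 0.47, 0.35, 0.19 and -0.26. Both were above 0 up to 4 h and below 0 at 6 h with either bacterium, and both were called higher in the mean (Ctss 0.36 and 0.21, Ctsl 0.16 and 0.19). The Ctss call with B. clausii was lost without its 1 h array (0.15) or its 4 h array (0.20), and the Ctsl calls without any of 3 arrays of the bacterium concerned (2, 4 or 6 h of L. acidophilus, down to 0.11, and 1, 2 or 4 h of B. clausii, down to 0.13).

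Ctsc encodes a dipeptidyl peptidase that activates other proteases. It was 0.21, 0.13, 0.05 and -0.40 with L. acidophilus, which gave a mean of 0.00, and 0.48, 0.22, 0.23 and -0.16 with B. clausii, called higher at 0.19. Lgmn encodes legumain, which cuts after asparagine. It was -0.10, -0.06, 0.03 and -0.11 with L. acidophilus, and the B. clausii arrays gave 0.01, 0.29, 0.42 and 0.22, called higher at 0.24. Ctsz, a carboxypeptidase, was 0.16, -0.08, -0.03 and -0.24 with L. acidophilus, while B. clausii gave 0.19, 0.42, 0.08 and 0.33, where the mean of 0.25 was called but not without the 2 h or the 6 h array (lowest value 0.16). Ctsf and Ctsh were called higher with B. clausii at 0.17 and 0.13, calls lost without any of 3 and 5 single arrays, with values down to 0.13 and 0.10. With L. acidophilus the means of these 3 lay between -0.05 and -0.03.

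Among the other peptidases, Ctsd encodes the aspartic protease cathepsin D, Ctsa the carboxypeptidase that also protects the sialidase and β-galactosidase, Tpp1 a tripeptidyl peptidase and Dpp7 a dipeptidyl peptidase. With L. acidophilus 1 of these 4 was called higher and with B. clausii 2 (1 each with the tested genes centred at 0). Ctsd was 0.24, 0.11, -0.19 and -0.18 with L. acidophilus, and the B. clausii arrays gave 0.73, 0.19, 0.34 and -0.10. The brightest Ctsd probe had no usable spot on the B. clausii 6 h array and was not tested. It was 0.35, 0.33, 0.09 and -0.59 with L. acidophilus, while B. clausii gave 0.83, 0.38 and 0.41 at 1, 2 and 4 h, so both Ctsd probes were highest at 1 h with B. clausii. Ctsa was 0.25, 0.20, 0.03 and -0.37 with L. acidophilus, while B. clausii gave 0.55, 0.26, 0.28 and 0.06. Both had a mean of at most 0.03 with L. acidophilus and of 0.29 with B. clausii, where both were called, although the Ctsd call was lost without the 1 h array (0.23) or the 4 h array (0.21). A second bright Ctsa probe gave 0.22 ± 0.05 with L. acidophilus and 0.66 ± 0.05 with B. clausii, both called among the 21274 probes fitted singly. On that probe the difference, L. acidophilus minus B. clausii, was also called, at -0.45 ± 0.06 (limma adjusted p = 0.0209 over single probes). Tpp1 passed no test on its brightest probe, and its dimmer probe was called lower with time at -0.27.

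Dpp7 had the only value of 2-fold or more above untreated cells in the set. It was 0.00, 0.21, 1.54 and 0.09 with L. acidophilus, and the B. clausii arrays gave 0.01, 0.19, 0.58 and 0.55. The mean of 0.46 ± 0.13 with L. acidophilus (adjusted p = 0.0195) rested on the 4 h array, without which it was 0.18 and no longer called, and the call was also lost without the 1 h or the 2 h array (0.51 and 0.50). The dimmer Dpp7 probe, at chr2:25211373-25211432 in the mm9 build where the brighter one lies at chr2:25207942-25208001, was -0.12 on that array. It averaged -0.07 with L. acidophilus and -0.05 with B. clausii.

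The glycosidases take sugars off glycoproteins and glycolipids. With L. acidophilus 2 of 6 were called higher and with B. clausii 5 of 6, and none lower. With the tested genes centred at 0, 2 were higher with each, and Glb1 was called lower with L. acidophilus at -0.16. Hexa, the α subunit of β-hexosaminidase, was 0.51, 0.54, 0.46 and 0.23 with L. acidophilus, while B. clausii gave 0.65, 0.70, 0.68 and 0.59. Neu1, the lysosomal sialidase, was 0.47, 0.28, 0.32 and 0.22 with L. acidophilus, and the B. clausii arrays gave 0.27, 0.46, 0.40 and 0.51. Neither had a value below 0 on its brightest probe, while a second Neu1 probe was -0.17 at 6 h with L. acidophilus. The mean response of Hexa was 0.43 ± 0.04 with L. acidophilus (adjusted p = 0.000241) and 0.65 ± 0.04 with B. clausii (adjusted p = 2.26e-05), the highest mean of the set with that bacterium, and it was called under all 19 other settings tried with either bacterium. Neu1 averaged 0.32 ± 0.06 and 0.41 ± 0.06.

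Gaa, Gusb and Glb1 encode the acid α-glucosidase, β-glucuronidase and β-galactosidase. Gaa was 0.24, 0.01, 0.04 and -0.30 with L. acidophilus, while B. clausii gave 0.36, 0.25, 0.26 and 0.28. Gusb was 0.12, 0.03, 0.00 and -0.24 with L. acidophilus, and the B. clausii arrays gave 0.37, 0.19, 0.28 and 0.10. Glb1 was 0.16, -0.03, -0.12 and -0.26 with L. acidophilus, while B. clausii gave 0.38, 0.23, 0.33 and -0.08. On these probes all 3 ended lowest at 6 h with L. acidophilus, and none was called there. With B. clausii they were called higher at 0.29, 0.24 and 0.22, and the Glb1 call was lost without the 4 h array (0.16). A dimmer Glb1 probe gave -0.10 with B. clausii and was not called. A dimmer Gusb probe was 0.42 at 6 h with L. acidophilus, and was called higher in the mean with L. acidophilus at 0.20 and with B. clausii at 0.40. The B. clausii means of the brighter Gaa, Gusb and Glb1 probes were 0.08, 0.09 and 0.00 with the tested genes centred at 0, and none was called. Gusb is spotted repeatedly, and its spots on 1 array scattered with an SD of 0.115 to 0.386. Man2b1, the α-mannosidase, passed no test with either bacterium.

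The lipid-handling group had fewer calls with L. acidophilus (0 higher and 2 lower of 6) than with B. clausii (3 higher and 1 lower), though the difference between the bacteria was called for 0 of the 6. Centring the tested genes at 0 gave 0 and 2 with L. acidophilus, and 1 higher and 2 lower with B. clausii. Pla2g15, a phospholipase, was 0.41, 0.06, 0.09 and -0.20 with L. acidophilus, and the B. clausii arrays gave 0.25, 0.08, 0.54 and 0.38. Psap, the precursor of the saposins that present lipids to enzymes, was 0.09, -0.04, 0.11 and -0.14 with L. acidophilus, while B. clausii gave 0.10, 0.19, 0.35 and 0.21. They were called higher with B. clausii at 0.31 and 0.21, and so was Npc2, which carries cholesterol, at 0.14. The Pla2g15 call was lost without the 4 h or the 6 h B. clausii array (lowest value 0.19), the Psap call without any of 3 B. clausii arrays (lowest 0.17) and the Npc2 call without any of 5 arrays (lowest 0.09). Psap and Npc2 turned to -0.01 and -0.05 with the tested genes centred at 0, and a dimmer Psap probe gave 0.07 with B. clausii and was not called. Asah1, the acid ceramidase, was lower in the mean with both bacteria. It was -0.03, -0.16, -0.12 and -0.42 with L. acidophilus, and the B. clausii arrays gave -0.03, -0.08, -0.26 and -0.45. Its means were -0.18 ± 0.04 (adjusted p = 0.0096) and -0.21 ± 0.04 (adjusted p = 0.00443), lost without the 1 h or 2 h L. acidophilus array (nearest to 0 at -0.14) and without the 4 h B. clausii array (-0.17). Acp5, the tartrate-resistant phosphatase that also marks osteoclasts, was -0.29, -0.24, -0.16 and 0.17 with L. acidophilus, while B. clausii gave -0.33, -0.09, -0.14 and 0.23. It was below 0 up to 4 h and above 0 at 6 h, and its mean was called lower with L. acidophilus at -0.13, a call lost without any of 6 single arrays.

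Grn encodes progranulin, a secreted and lysosomal protein that is cut into granulins. With each gene read by its brightest usable probe, it was the only one of the 49 for which the responses to the bacteria were called different. A second Ctsa probe was also called different, as given above. The brightest probe was -0.65, -0.37, -0.73 and -0.42 with L. acidophilus, and the B. clausii arrays gave 0.29, 0.01, -0.04 and 0.37. All 4 L. acidophilus values lay below all 4 B. clausii values. The means were -0.54 ± 0.06 (adjusted p = 0.000413) and 0.16 ± 0.06 (adjusted p = 0.0678), and the difference, L. acidophilus minus B. clausii, was -0.70 ± 0.09 (limma adjusted p = 0.0197). In that test 0.446% of all genes were called higher with L. acidophilus and 0.196% lower, with 0 higher and 1 lower of the 49. At an unadjusted p under 0.05 by limma, 5 of the 49 were higher and 19 lower, against 12.4% and 10.4% of all genes. The Grn call was lost in each of the 8 fits without 1 array (differences of -0.80 to -0.62, adjusted p up to 0.152), and with the values processed by the scanner software (-0.61, adjusted p = 0.146).

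Both kept Grn probes are printed because they differ in level of response, in lower case throughout since the whole probe is the measured part. Both are annotated to the same RefSeq transcript on the plus strand of chromosome 11 (mm9), the brighter at chr11:102294591-102294650 and the dimmer nearer the 3′ end at chr11:102297692-102297751.
Grn brighter probe: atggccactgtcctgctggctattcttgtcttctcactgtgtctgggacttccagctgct
Grn dimmer probe: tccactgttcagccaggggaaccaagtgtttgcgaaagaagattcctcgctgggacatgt
The dimmer probe was 0.25, 0.17, 0.05 and -0.22 with L. acidophilus, while B. clausii gave 0.71, 0.46, 0.71 and 0.13. Its mean was thus 0.06 ± 0.05 with L. acidophilus, not called, and 0.50 ± 0.05 with B. clausii. The difference between the bacteria had the same sign on both probes, -0.44 ± 0.07 on the dimmer one (adjusted p = 0.0306 over 21274 probes), so the probes agreed on which bacterium gave the lower ratio but not on whether Grn was below untreated cells with L. acidophilus.

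**Figure D3:**
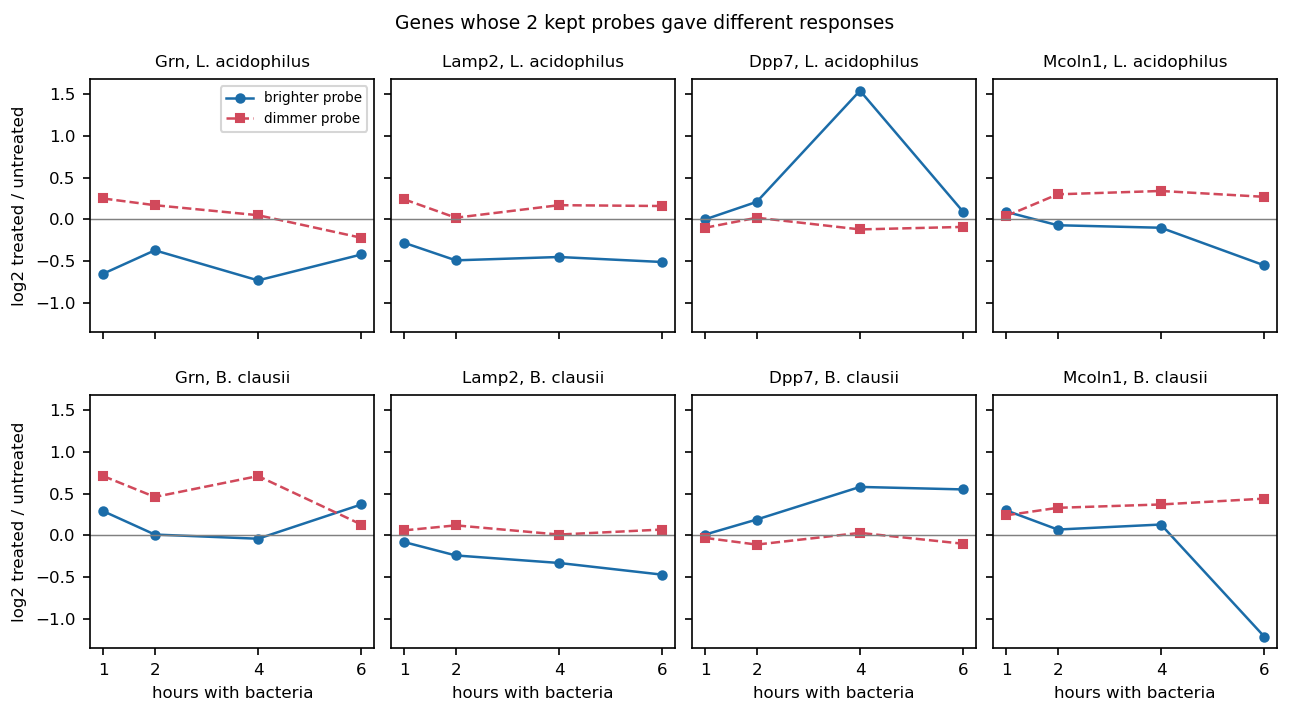
Log2 ratio of treated over untreated cells against hours with bacteria for the 2 kept probes of Grn, Lamp2, Dpp7 and Mcoln1, with L. acidophilus (top) and B. clausii (bottom); solid blue lines are the brighter and dashed red lines the dimmer probe, 1 array per point. The Lamp2 probes run apart on all 8 arrays, and the peak of Dpp7 at 4 h with L. acidophilus (1.54) and the low of Mcoln1 at 6 h with B. clausii (-1.21) are seen by 1 probe each.

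The membrane proteins moved in both directions. With L. acidophilus 1 of 7 was called higher and 2 lower, and with B. clausii 2 were higher and 2 lower. With the tested genes centred at 0, 1 was higher with each bacterium, and 3 were lower with L. acidophilus and 4 with B. clausii. Cd63, a tetraspanin of late endosomes and lysosomes, was 0.39, 0.42, 0.36 and 0.26 with L. acidophilus, and the B. clausii arrays gave 0.54, 0.45, 0.37 and 0.31. It was above 0 on all 8 arrays, with means of 0.36 ± 0.04 (adjusted p = 0.000386) and 0.42 ± 0.04 (adjusted p = 0.000105). Lamp1, a major glycoprotein of the lysosomal membrane, was 0.17, -0.10, -0.04 and -0.09 with L. acidophilus, while B. clausii gave 0.32, 0.12, -0.01 and 0.16. Its mean was called with B. clausii at 0.15, not without any of 3 arrays of that bacterium, and stood at -0.01 there with the tested genes centred at 0.

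Laptm5, a membrane protein of blood cell lysosomes, had the lowest mean of the set with B. clausii. It was -0.34, -0.33, -0.44 and -0.60 with L. acidophilus, and the B. clausii arrays gave -0.61, -0.66, -0.91 and -0.66. All 8 values were below 0, and the means of -0.43 ± 0.05 (adjusted p = 0.000527) and -0.71 ± 0.05 (adjusted p = 2.98e-05) were called under all 19 other settings. Its second probe gave -0.18 and -0.52, both called.

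Lamp2, the partner of Lamp1, gave opposite answers from probes for different transcripts. The brighter probe (chrX:35758309-35758368, mm9, minus strand), annotated to transcript variant 1, was -0.28, -0.49, -0.45 and -0.51 with L. acidophilus, while B. clausii gave -0.08, -0.24, -0.33 and -0.47. The dimmer probe (chrX:35772774-35772833), annotated to transcript variant 2, was 0.24, 0.02, 0.17 and 0.16 with L. acidophilus, and the B. clausii arrays gave 0.06, 0.12, 0.01 and 0.07. The first was below 0 and the second above 0 on all 8 arrays. Their means with L. acidophilus were -0.43 ± 0.04 (adjusted p = 0.000237) and 0.15 ± 0.05 (adjusted p = 0.0298 over single probes), and with B. clausii -0.28 ± 0.04 (adjusted p = 0.000999) and 0.07 ± 0.05 (adjusted p = 0.276). The remaining Lamp2 probe was well above background on 0 arrays.

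Mcoln1 encodes a calcium channel of the lysosome that TFEB signalling depends on. Its brighter probe was 0.09, -0.07, -0.10 and -0.55 with L. acidophilus, while B. clausii gave 0.30, 0.07, 0.13 and -1.21, the only value of 2-fold or more below untreated cells in the set. That value was -0.95 with the signals processed by the scanner software. Its dimmer probe, which is annotated to a cDNA clone rather than to the RefSeq transcript, was 0.27 at 6 h with L. acidophilus and 0.44 at 6 h with B. clausii. The dimmer probe was called higher in the mean with L. acidophilus at 0.24 and with B. clausii at 0.35. The brighter one averaged -0.16 and -0.17 and was not called, so the direction of Mcoln1 rests on the probe. Scarb2, which carries glucocerebrosidase to the lysosome, and Cd68, a macrophage glycoprotein, were not called in the mean on their brightest probes. Both changed with time on these probes, as given further on. A second Scarb2 probe of about the same brightness was called higher with B. clausii at 0.15 (limma adjusted p = 0.0131 over single probes), where the brightest gave -0.12. With L. acidophilus the second probe gave 0.00 and was not called.

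The V1 sector of the proton pump was lower in more subunits than it was higher. With L. acidophilus 2 of 10 tested subunits were called higher and 4 lower, and with B. clausii 2 higher and 6 lower (group medians -0.10 and -0.19). Centring the tested genes at 0 gave 2 higher and 5 lower with L. acidophilus, and 2 higher and 7 lower with B. clausii. Atp6v1e1, part of the peripheral stalk, was -0.30, -0.39, -0.30 and -0.10 with L. acidophilus, and the B. clausii arrays gave -0.46, -0.41, -0.42 and -0.47. Atp6v1d, part of the central stalk, was -0.40, -0.10, 0.05 and -0.13 with L. acidophilus, while B. clausii gave -0.68, -0.30, -0.23 and -0.33. Atp6v1h, a regulatory subunit, was -0.21, -0.09, -0.30 and -0.28 with L. acidophilus, and the B. clausii arrays gave -0.08, -0.34, -0.35 and -0.43. The 0.05 of Atp6v1d at 4 h with L. acidophilus was the only one of these values above 0.

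The B. clausii means were -0.44 ± 0.05 for Atp6v1e1 (adjusted p = 0.000213), -0.39 ± 0.04 for Atp6v1d (adjusted p = 0.000139) and -0.30 ± 0.05 for Atp6v1h (adjusted p = 0.00153), and all 3 calls held under all 19 other settings. The L. acidophilus means were -0.27, -0.15 and -0.22 in the same order, where the Atp6v1d call was lost without any of the 4 L. acidophilus arrays and the Atp6v1h call without the 1 h or the 4 h array (nearest to 0 at -0.15). Dimmer probes of Atp6v1e1 and Atp6v1h were called lower with B. clausii (-0.29 and -0.19) and not called with L. acidophilus (-0.12 and -0.09). Atp6v1c1, which connects the peripheral stalks, was -0.26, -0.28, -0.02 and -0.05 with L. acidophilus, not called, and -0.77, -0.21, -0.28 and -0.07 with B. clausii, called lower at -0.33 ± 0.07. Atp6v1b2, the ATP-binding subunit B of most tissues, was -0.33, -0.34, -0.12 and -0.19 with L. acidophilus, while B. clausii gave -0.35, -0.17, -0.34 and 0.07. Its means of -0.25 and -0.20 were called, though not without the 2 h or 6 h array with L. acidophilus (nearest to 0 at -0.17) and not without the 1, 2 or 4 h array with B. clausii (nearest to 0 at -0.11).

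The stalk subunit G and the catalytic subunit A did not follow that direction throughout. Atp6v1g1 was -0.14, 0.10, 0.26 and 0.23 with L. acidophilus, not called at 0.11, and -0.33, -0.14, -0.11 and -0.13 with B. clausii, called lower at -0.18 (not called without the 4 h array, -0.15). The difference of 0.29 did not pass (adjusted p = 0.0671). A second Atp6v1g1 probe of nearly the same brightness was called higher with L. acidophilus at 0.21 ± 0.04 (adjusted p = 0.00407) and was 0.09 with B. clausii, not called, so the lower call rests on 1 probe. Its relative Atp6v1g2, known from neurons, was 0.21, 0.20, 0.14 and 0.28 with L. acidophilus, and the B. clausii arrays gave 0.16, 0.30, 0.00 and 0.33, and was called higher with both at 0.21 and 0.20 (not without the 4 h L. acidophilus or the 2 h B. clausii array, 0.16 each). Atp6v1a, the catalytic subunit, was 0.21, 0.19, 0.33 and 0.10 with L. acidophilus, called at 0.20 ± 0.05 (not without the 4 h or the 6 h array), and its second probe was called lower there at -0.15 ± 0.05, so the direction of Atp6v1a rests on the probe. Atp6v1e2, an isoform known from testis, was called higher with B. clausii at 0.16, lost without any of 3 arrays. Its probe was well above background on 6 arrays only. The probes of Atp6v1e2 and Atp6v1g2 were dim, with a mean log2 brightness of 6.72 and 7.04, where that of Atp6v1g1 had 14.33. Atp6v1f passed no test on its brightest probe, while its second bright probe was called lower with L. acidophilus at -0.19 (adjusted p = 0.0319) and with B. clausii at -0.33 (adjusted p = 0.00194).

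In the membrane sector V0, 0 of the 7 tested subunits were called lower in the mean by limma on the loess scale, each read by its brightest usable probe. Dimmer probes were called lower for Atp6v0e2 with L. acidophilus (-0.22) and for Atp6v0a1 with L. acidophilus (-0.14) and B. clausii (-0.15), whereas another Atp6v0a1 probe was called higher with both (0.28 and 0.35), so the direction of these subunits rests on the probe. Atp6v0b, a subunit of the proton-carrying ring that was not tested, was -0.26, -0.33, -0.43 and -0.38 with L. acidophilus, while B. clausii gave 0.18, 0.01 and 0.06 at 1, 2 and 4 h. Its 4 L. acidophilus values all lay below its 3 B. clausii values. With L. acidophilus 1 of 7 was called higher and with B. clausii 4 (group medians 0.03 and 0.15), but with the tested genes centred at 0 the counts were 1 higher and 1 lower with L. acidophilus and 1 higher and 2 lower with B. clausii. Atp6v0e, a small subunit, was 0.16, 0.18, 0.23 and 0.29 with L. acidophilus, while B. clausii gave 0.15, 0.21, 0.20 and 0.35. Atp6v0d1, which links V0 to the central stalk, was -0.15, 0.11, 0.12 and 0.29 with L. acidophilus, and the B. clausii arrays gave 0.13, 0.25, 0.30 and 0.45. Atp6v0e was above 0 on all 8 arrays and called with both bacteria (0.21 ± 0.04 and 0.23 ± 0.04), and Atp6v0d1 was called with B. clausii (0.29 ± 0.04, adjusted p = 0.000694) and not with L. acidophilus (0.09 ± 0.04, adjusted p = 0.0924). Atp6v0a1, a membrane subunit of the proton path, was 0.06, 0.04, -0.06 and -0.03 with L. acidophilus, while B. clausii gave 0.21, 0.13, 0.15 and 0.24, called there at 0.18 (not without the 4 h array, 0.17). Atp6v0e2 was -0.15, 0.06, 0.07 and 0.14 with L. acidophilus, and the B. clausii arrays gave -0.10, 0.18, 0.18 and 0.35, called there at 0.15 (not without any of 3 arrays, lowest 0.12), and stood at -0.07 with the tested genes centred at 0. Atp6v0a2 was 0.26, 0.00, -0.02 and -0.14 with L. acidophilus, while B. clausii gave 0.27, 0.04, 0.05 and -0.27, highest at 1 h and lowest at 6 h with both. Atp6v0c, which forms the proton-carrying ring, and Atp6v0d2, the isoform of osteoclasts, passed no test.

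**Figure D4:**
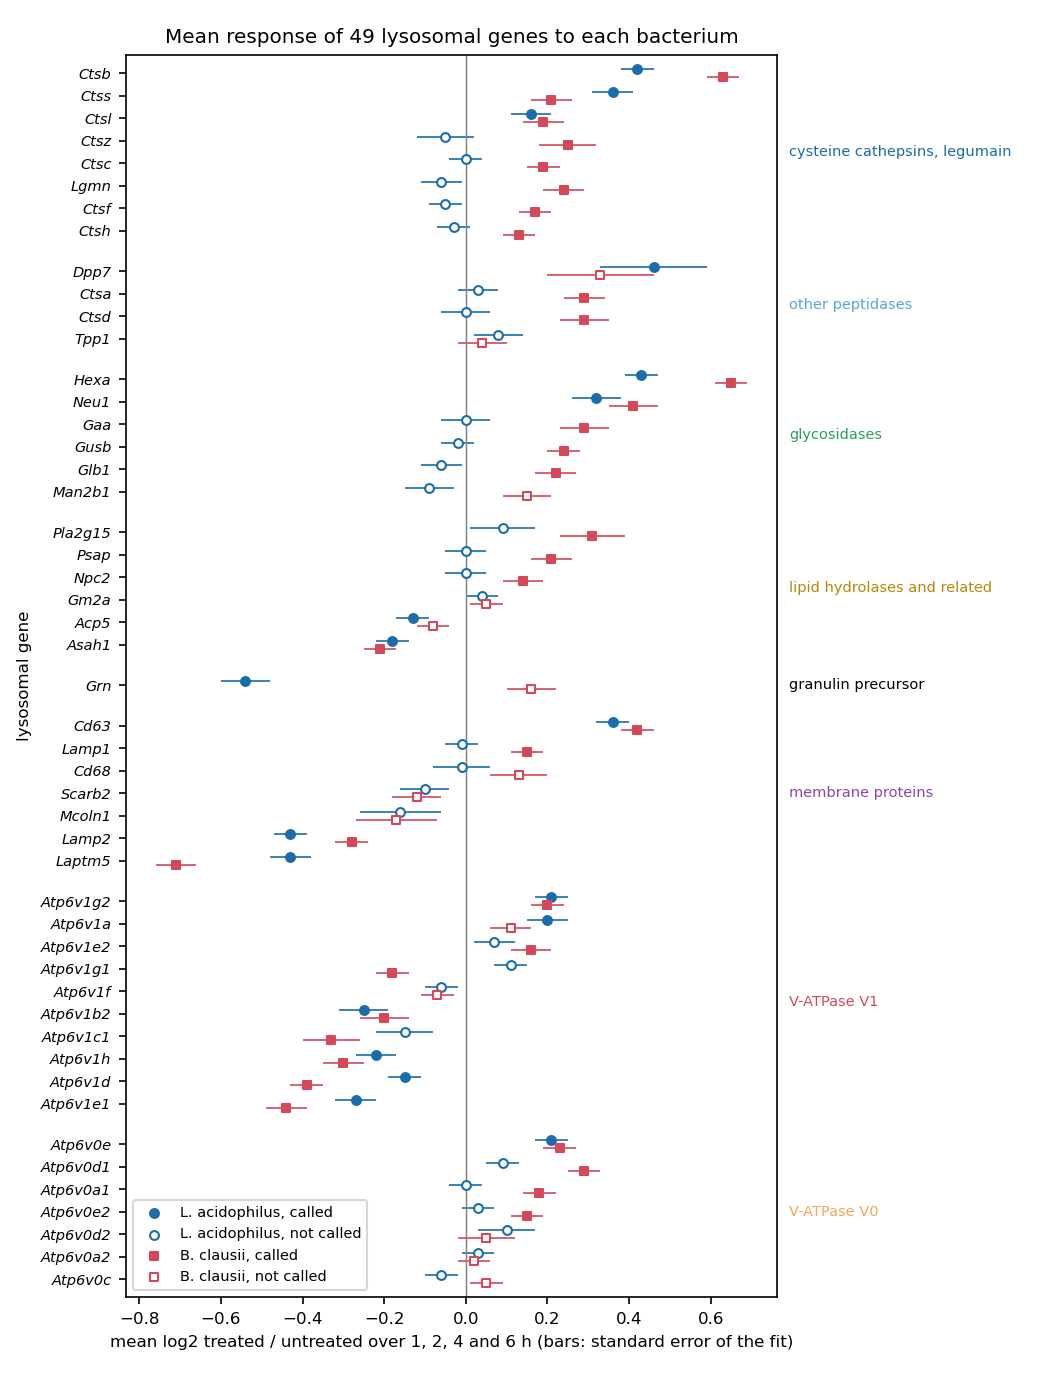
Mean log2 ratio of treated over untreated cells over 1, 2, 4 and 6 h for the 49 tested lysosomal genes by role, with the standard error of the limma fit; circles are L. acidophilus, squares B. clausii, and filled symbols are called at an adjusted p under 0.05 after loess. Hexa (0.43 and 0.65) and Ctsb (0.42 and 0.63) lie far right, Laptm5 (-0.43 and -0.71) far left, and Grn has the widest gap between the bacteria (-0.54 and 0.16); with the tested genes centred at 0 without loess, 22 of the 49 B. clausii means are above 0, where 36 are above 0 here.

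Time changed some genes in step with both bacteria. The mean of 4 and 6 h minus that of 1 and 2 h, over both bacteria, was called higher for 7 of the 49 genes (14.3%, against 12.3% of all genes) and lower for 11 (22.4%, against 12.3%). With the tested genes centred at 0 the counts were 9 and 7, and with the values processed by the scanner software 0 and 5. The median change of the 49 was -0.05 with loess, where all genes had 0, and -0.04 when centred, where all genes had -0.04. The lower genes were 3 cysteine cathepsins (Ctss at -0.48 ± 0.07, Ctsl at -0.37 ± 0.06 and Ctsc at -0.33 ± 0.06), the peptidases Ctsd and Ctsa, Glb1, the membrane proteins Mcoln1 and Cd68, Asah1, Atp6v0a2 and Gm2a. Gm2a, the activator that lifts GM2 ganglioside to β-hexosaminidase, was 0.30, 0.10, 0.04 and -0.25 with L. acidophilus, and the B. clausii arrays gave 0.31, 0.12, 0.07 and -0.29, a change over both bacteria of -0.31 ± 0.05 (limma adjusted p = 0.00485). Cd68 was 0.28, 0.23, -0.28 and -0.27 with L. acidophilus, while B. clausii gave 0.61, 0.05, 0.12 and -0.26, a change over both bacteria of -0.46 ± 0.10, which missed the threshold without the L. acidophilus 4 h array (adjusted p = 0.0519).

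The calls for Ctss, Ctsl, Ctsc and Gm2a held in all 8 fits without 1 array, and none of the other 14 did. Without the B. clausii 6 h array the Mcoln1 change was -0.32, against -0.53 ± 0.14 with it, and its call was lost without any of 4 other arrays. Glb1 was -0.21 here and 0.03 with the values processed by the scanner software. Several of the falls were seen by 1 probe: the other kept probes changed with time by -0.03 for a bright probe of Ctsa, -0.03 for Gm2a, 0.13 for Mcoln1 and 0.17 for Glb1, none of them called. A second Atp6v0a2 probe fell more (-0.54, called). Second probes of Neu1 (-0.44), Ctsz (-0.29) and Grn (-0.23) were also called lower with time, where the brightest probes of these genes were not.

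The 7 genes higher at 4 and 6 h came from several groups: Dpp7 at 0.59, Scarb2 at 0.36, Npc2 at 0.31, Acp5 at 0.26, Atp6v1d at 0.21, Atp6v0d1 at 0.20 and Atp6v0e2 at 0.19. The rise of Scarb2 was seen by 1 probe: a second probe of about the same brightness changed by 0.07 and was not called, and neither were the dimmer probes of Dpp7 (-0.01) and Atp6v0e2 (0.07). Second probes of Atp6v1e1 (0.25) and Atp6v1g1 (0.19) were called higher with time, where the brightest probes of these genes were not. Scarb2 was -0.15, -0.32, 0.03 and 0.04 with L. acidophilus, and the B. clausii arrays gave -0.50, -0.19, -0.02 and 0.22. Npc2 was -0.15, -0.06, 0.06 and 0.15 with L. acidophilus, while B. clausii gave -0.22, 0.09, 0.24 and 0.45. Npc2 stood higher at each later time with either bacterium, whereas Atp6v1d was lowest at 1 h (-0.40 and -0.68) and closer to 0 from 2 h on. Without the L. acidophilus 4 h array the Dpp7 change was 0.31 and not called, and each of the other 6 calls was lost without at least 4 of the single arrays, with values of 0.15 to 0.37 in those fits.

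**Figure D5:**
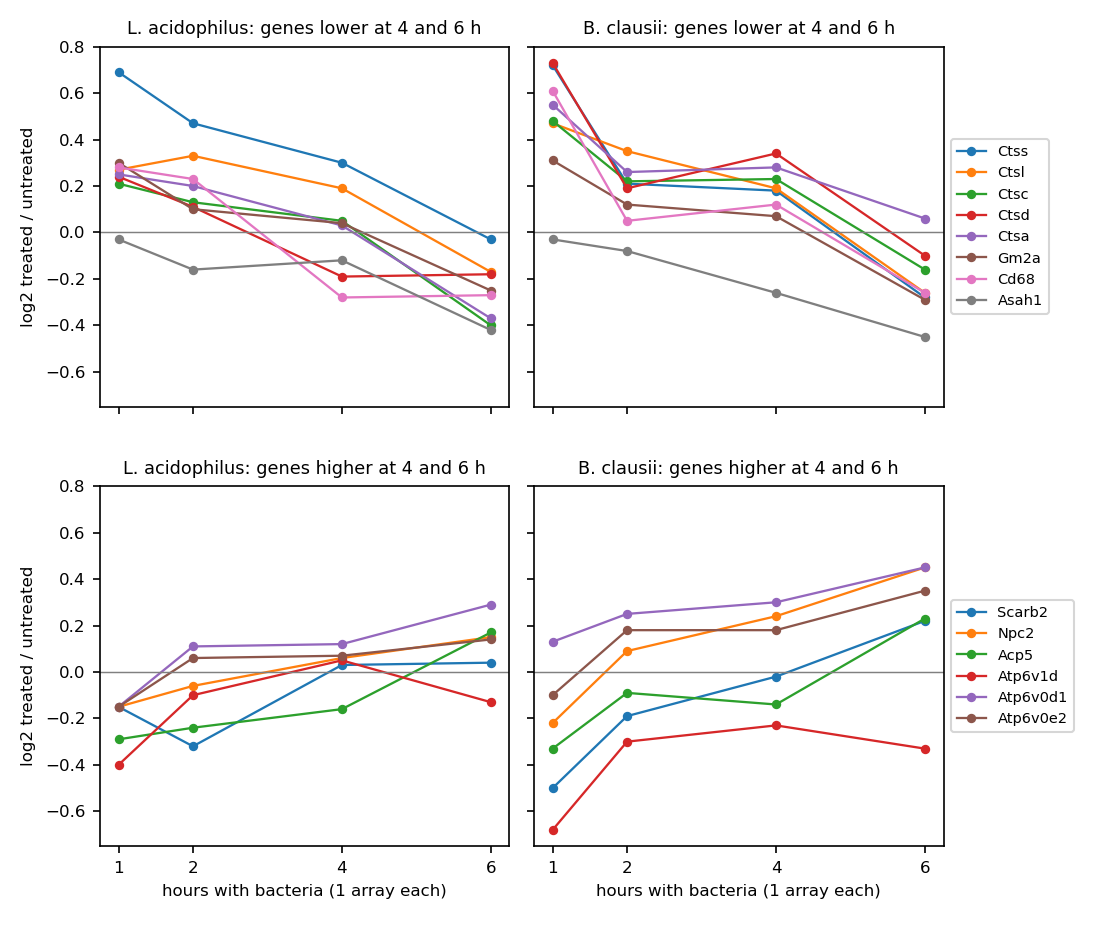
Log2 ratio of treated over untreated cells against hours with bacteria, 1 array per point, for 8 genes called lower (top) and 6 called higher (bottom) at 4 and 6 h than at 1 and 2 h after loess, with L. acidophilus (left) and B. clausii (right). Ctss is highest at 1 h (0.69 and 0.72) and Npc2 at 6 h (0.15 and 0.45); with the tested genes centred at 0 without loess, Ctsa (-0.22) and Asah1 (-0.18) kept their sign and were not called.

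The change with time did not separate the bacteria. The interaction of phase and bacterium was called for 0 of the 49 genes in either direction by limma, as for 0% of all genes. At an unadjusted p under 0.05 it was 0 higher and 1 lower, against 0.588% and 0.601% of all genes. In simulated data of this size the test found 10% of interactions of 0.5 and 67% of those of 1, so a difference of 0.5 would mostly have been missed.

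Single arrays have no replicate. On any of the 8 arrays 1 of the 49 genes (Dpp7) was 2-fold or more above and 1 (Mcoln1) 2-fold or more below untreated cells. Among all genes, 0.176%, 0.054%, 0.0878% and 0.162% were 2-fold or more higher with L. acidophilus at 1, 2, 4 and 6 h, and 0.486%, 0.128%, 0.115% and 0.284% with B. clausii. The shares 2-fold or more lower were 0.0203%, 0.0203%, 0.0405% and 0.135% with L. acidophilus, and the B. clausii arrays gave 0.122%, 0.054%, 0.189% and 0.331%. Dpp7 and Mcoln1 were thus among few genes of the array to pass that size. The spread of the 49 genes on an array (SD 0.235 to 0.366) was close to that of all genes (SD 0.210 to 0.303).

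Other genes of the lysosome, 74 tested of 76 listed, gave a setting for these results. With L. acidophilus 21 were called higher (28.4%, against 23.7% of all genes) and 14 lower (18.9%, against 18.5%). With B. clausii 25 were higher (33.8%, against 23.1%) and 14 lower (18.9%, against 21.1%), and with time 9 were higher (12.2%, against 12.3%) and 13 lower (17.6%, against 12.3%). Igf2r, the receptor that carries hydrolases marked with mannose 6-phosphate to the lysosome, was 0.79, 0.63, 0.45 and 0.17 with L. acidophilus, and the B. clausii arrays gave 1.18, 0.80, 0.72 and 0.19. It was highest at 1 h and lowest at 6 h with both bacteria. Cst3, the secreted inhibitor cystatin C of cysteine cathepsins, was called higher with L. acidophilus at 0.33 and with B. clausii at 0.60. Fnip2, a partner of folliculin in mTORC1 signalling, was called higher at 0.44 and 0.24 in that order, where 1.17 came from the L. acidophilus 4 h array.

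Lipa, the acid lipase that frees cholesterol from its esters, was the lowest of them with both bacteria. It was -0.44, -0.46, -0.44 and -0.56 with L. acidophilus, while B. clausii gave -0.80, -0.72, -0.82 and -0.69. Gga2, an adaptor that sorts cargo to lysosomes, was called lower with L. acidophilus at -0.32 and with B. clausii at -0.35. In the same order the sialomucin Cd164 was called lower at -0.31 and -0.36, and Tfe3, the relative of Tfeb, at -0.32 ± 0.05 and -0.21 ± 0.05. Between 1 to 2 h and 4 to 6 h, Ncoa7 (-0.54) and Igf2r (-0.46) were among the genes that fell most, and Fnip2 (0.48), Mtor (0.41) and Npc1 (0.35) rose most. For these genes the difference between the bacteria was called in 0 of 74, by limma.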

How the data were processed

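RNA of RAW 264.7 cells was measured on 8 arrays of 41174 probes. The deposited spot intensity values are, per the file headers, mean foreground and median local background in each channel, and the deposited log10 ratios are red over green after the scanner software's own background and dye correction. The headers name Feature Extraction 10.7.3.1 and the submitters' processing notes 10.5.1.1. The deposited files also hold other columns, used here as flags.

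Where the software had marked a local background as an outlier and it exceeded 3 times the median of its array, the median took its place and the spot was not used. From the deposited intensities, log2 ratios were computed after normexp correction with an offset of 50, and loess was applied within arrays (limma 3.58.1, R 4.3.3). Flagged spots (0.473% to 0.890%) were dropped and each gene was read by its brightest probe among those well above background, in either channel, on 2 arrays or more and with an unflagged spot on all 8 arrays. The last condition left out 549 probes, among them the only Atp6v0b probe and the brightest Ctsd probe. Probes were named through a GRCm38.p6 gene table (27668 by accession, 5589 by symbol, 471 by synonym, 7446 by the file). Limma fitted bacterium and time (3 residual degrees of freedom), or bacterium by phase (4), with Benjamini-Hochberg adjustment over 14805 genes. In simulated data the fits found 90% of mean responses of 0.5 log2 with either bacterium, 77% of differences between bacteria and 72% of changes with time of that size. The false share of the calls there was 8.29% for the L. acidophilus mean, above the 5% aimed at. It was 2.58% for the B. clausii mean, 2.27% for the difference and 4.52% for the change with time. Replicate spots of a probe scattered by a median SD of 0.0967 to 0.13 log2 per array; the number of arrays limits the precision.

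The genes and lists were chosen with earlier results of these data known. Values on all arrays are given for genes called in any contrast (at most the 12 largest per direction), past 2-fold on any array, or with probes of opposite sign more than 0.5 apart, and for the other lysosome genes the 3 largest calls per direction and contrast, some of which are not reported here. Alternatives changed the signal used, background, normalization, probe filter, probe choice, time term and each array left out; median centring on the tested genes and single-probe fits were added after the data were seen. The slide could not be a block, since each bacterium has 1.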

Additional observations from a re-analysis of the deposited data

Results flagged for a closer look

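Grn stood out because its responses to the bacteria differed in a test of the difference itself: L. acidophilus minus B. clausii was -0.70 on the log2 scale (limma adjusted p = 0.0197), from means of -0.54 with L. acidophilus and 0.16 with B. clausii. The second Grn probe gave -0.44 for the same difference, and leaving out any 1 array ended the call. Slide and bacterium cannot be told apart.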

How the results depend on the processing

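Of 73 calls for single genes on the loess scale, 71 were unchanged without background correction and 65 without the filter on dim probes, against 36 with median centring in place of loess, 40 with the local backgrounds as deposited and 46 with the values processed by the scanner software or with the series matrix values. Median centring moved the median of all genes to -0.08 with L. acidophilus and -0.25 with B. clausii. For the mean responses, the count with L. acidophilus was 6 higher without the time term and 16 lower with median centring. With B. clausii it was 14 higher with local backgrounds as deposited, 14 higher without the time term, 2 higher and 31 lower with median centring, and 11 higher and 15 lower with the tested genes centred at 0. The difference between the bacteria gave 16 higher with median centring, 5 higher and 3 lower with the tested genes centred at 0 (Atp6v1g1 0.47, Laptm5 0.40, Atp6v1d 0.38, Ctss 0.32 and Atp6v1e1 0.27, against Grn -0.55, Ctsf -0.25 and Atp6v1e2 -0.25), 1 higher and 2 lower with both channels required on all 8 arrays, and 0 lower by limma with offset 0, processed values, series matrix values or no time term. The change with time gave 1 higher and 5 lower with offset 0, 2 and 2 with local backgrounds as deposited, 0 and 5 with processed or series matrix values, 4 higher without the filter, 1 lower with median centring and 7 lower with the tested genes centred at 0. At 1.5-fold, 6 genes were higher and 5 lower on single arrays. At 2-fold, 3 were higher and 0 lower with processed values, and 9 lower with median centring. Leaving out 1 array at a time gave 6 to 10 higher and 6 to 10 lower with L. acidophilus, 15 to 27 higher and 6 to 10 lower with B. clausii, 0 and 0 for the difference, and 0 to 6 higher and 5 to 12 lower for the change with time.

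Median centring turned 20 B. clausii means below 0: Ctsz -0.12, Lgmn -0.18, Ctss -0.17, Ctsl -0.18, Ctsc -0.27, Ctsf -0.05, Ctsh -0.06, Ctsa -0.08, Ctsd -0.14, Gaa -0.16, Gusb -0.15, Glb1 -0.24, Pla2g15 -0.01, Psap -0.25, Npc2 -0.29, Lamp1 -0.25, Atp6v0d1 -0.18, Atp6v0e -0.13, Atp6v0a1 -0.08 and Atp6v0e2 -0.31. With the tested genes centred at 0, 6 lost their positive sign: Glb1 0.00, Psap -0.01, Ctsc -0.03, Atp6v0e2 -0.07, Lamp1 -0.01 and Npc2 -0.05. The change of Glb1 with time was 0.03 with processed or series matrix values. The causes were not tested.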
